A study of Mus musculus with 18 samples.

Results

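Midkine (Mdk), pleiotrophin (Ptn) and 5 cell-surface proteins known to bind them, nucleolin (Ncl), the syndecans Sdc1, Sdc2 and Sdc4, and LDL receptor related protein 1 (Lrp1), were followed through single-cell RNA-Seq of mouse bone marrow (BM). The genes were taken by name, and 7 of 7 were present in the matrix of 20275 genes, each with at least 1 count in each of the 9 mRNA libraries. All mice were C57B6/J, with no transgene or treatment. Hematopoietic progenitors (HPs, sorted as CD45-positive, lineage-negative and c-Kit-positive) came from 5 libraries, 2 at E16.5 and 1 each at E18.5, P0 and in the adult, and stroma (sorted as CD45-negative and Ter119-negative) from 4 libraries, 1 per stage. Mice were pooled for every library, 38 of them at E16.5, 9 at E18.5, 6 newborns at P0 and 4 adults. Fetal and neonatal BM was taken from whole skeletons without the head, and adult BM from long bones, pelvis and spine, so age and skeletal site cannot be told apart between P0 and the adult.

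Midkine and pleiotrophin are the only members of a family of small secreted growth factors that bind heparin. Both are held at cell surfaces and in matrix by the sulfated sugar chains of proteoglycans, and both are made widely in the embryo and by far fewer cells in the adult. Syndecans are membrane proteoglycans that carry such chains, nucleolin is a ribosome assembly protein of the nucleolus that also reaches the cell surface, and Lrp1 is a large endocytic receptor. In adult BM, pleiotrophin from stroma and endothelium is known as a factor that maintains hematopoietic stem cells.

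The deposited matrix held raw counts of unique molecular identifiers (UMIs) for 20982 HP and 35219 stromal cells, with library totals of 13974733 to 194892476 UMIs and medians of 6747 to 23291 UMIs per cell. The 56201 cells carried 54831 distinct barcodes, and 1102 of these occurred in more than 1 library. Levels are given in CPM, the UMIs of a gene per 1000000 UMIs of the cells summed, with an exact Poisson 95% interval, and shares of cells with a UMI after every cell was thinned to 1000 UMIs, with an exact Clopper-Pearson 95% interval. These intervals hold counting error only. With 1 stromal library per stage, stages of the stroma have no replicate check, so a step was counted where a gene's CPM differed at least 2-fold with at least 50 counts in the higher group, and the share of all genes past the same rule stands beside the count. Reads were counted at the 3′ end of transcripts, so levels of different genes were not compared with each other. The authors had removed contaminating blood cells from the stroma, where Ptprc was at 0.00889 to 0.0564 CPM and Hbb-bs, a globin, at 0.791 to 85.3 CPM.

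The genes lie on 6 chromosomes of the mm10 build (GRCm38.p6, coordinates from RefSeq). Mdk spans chr2:91929805-91932297, Ptn chr6:36714924-36810179, Ncl chr1:86344719-86359455, Sdc1 chr12:8771396-8793716, Sdc2 chr15:32920723-33034721, Sdc4 chr2:164424247-164443188 and Lrp1 chr10:127538157-127621148. Ncl holds small nucleolar RNA genes in its introns. RefSeq promoters were at hand for 5 of the 7 genes, all but Mdk and Sdc2. Those of Ptn and Lrp1 are printed because, between P0 and adult fibroblast clusters, Ptn was lower and Lrp1 higher. Both genes lie on the minus strand and both stretches run 5′ to 3′. The Ptn stretch covers chr6:36810221-36810429, without the bases nearest the start, which lie inside a longer annotated transcript, and has a CCAAT box in capitals. The Lrp1 stretch ends at the base before the annotated start. It covers chr10:127621149-127621398, with CCGCCC, a GC box read on the other strand, in capitals.
Ptn: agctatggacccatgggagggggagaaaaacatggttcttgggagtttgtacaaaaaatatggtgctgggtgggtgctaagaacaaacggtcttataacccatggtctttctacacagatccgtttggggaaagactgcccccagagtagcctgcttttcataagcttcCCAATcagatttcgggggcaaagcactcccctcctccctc
Lrp1: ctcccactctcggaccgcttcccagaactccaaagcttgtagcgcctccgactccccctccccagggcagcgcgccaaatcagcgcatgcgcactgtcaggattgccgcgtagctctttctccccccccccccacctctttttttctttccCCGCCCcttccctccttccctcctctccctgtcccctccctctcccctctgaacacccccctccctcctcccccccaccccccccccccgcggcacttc
In the 250 bases before the start Ptn had 5 CpG and Lrp1 13 CpG, against a median of 6 CpG over all RefSeq starts. Searched on both strands over 32851 promoters of 250 bases, CCAAT occurred in 33.8%, GGGCGG in 32.7% and TATAAA in 12.4%. TATAAA was in none of the 5 members' stretches, and GGGCGG occurred 3 times in Ncl, 3 times in Sdc1 and 4 times in Sdc4. These matches describe letters and are not evidence of binding.

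In the stroma both ligands were abundant before birth and sparse in the adult, while Lrp1 and the syndecans Sdc2 and Sdc4 were highest in the adult. Stromal Mdk was at 343 (E16.5), 132 (E18.5), 173 (P0) and 45.6 CPM (adult). Stromal Ptn was at 536, 359, 494 and 124 CPM. The first 2-fold difference of Mdk lay between E16.5 and E18.5, where its level was 0.384 times the earlier one (0.377 to 0.392), and Mdk was the sole member past 2-fold at that step, at which 2.37% of 14498 genes were at least 2-fold higher and 4.01% lower. No member passed between E18.5 and P0 (3.5% of all genes higher, 0.487% lower). Between P0 and the adult Mdk (0.264, 0.256 to 0.273) and Ptn (0.252, 0.247 to 0.257) were lower and Lrp1 was higher (2.39, 2.35 to 2.42), at a step where 17.6% of all genes were higher and 11% lower. With mitochondrial and ribosomal protein UMIs left out of the total, Lrp1 was 1.98-fold higher and did not pass. A single library is a mixture of cell types, so more of a cell type and more RNA per cell cannot be told apart in these totals.

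**Figure D1:**
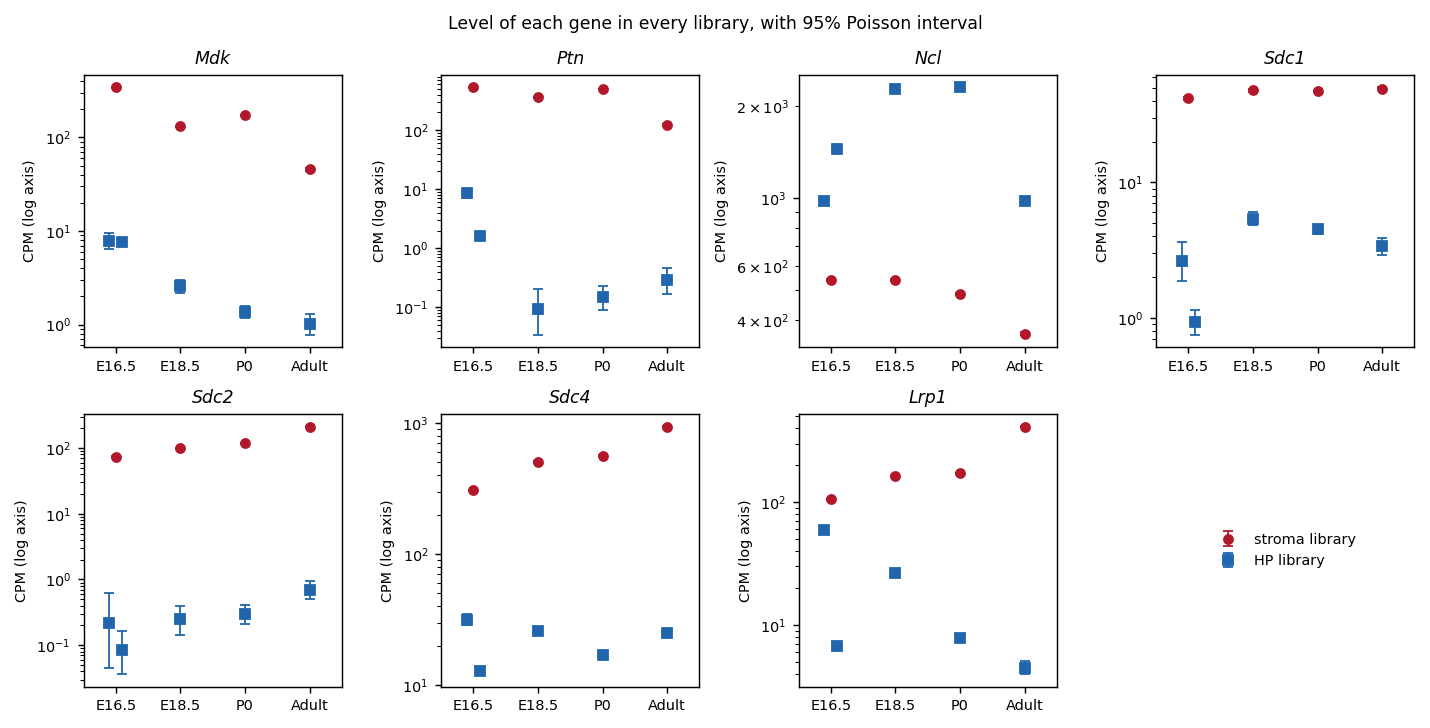
Level (CPM, log axis) of each of the 7 genes in every library by stage. Circles are the 4 stromal and squares the 5 HP libraries, with both E16.5 HP libraries side by side, and bars are exact Poisson 95% intervals. Stromal Mdk runs from 343 to 45.6 CPM and stromal Lrp1 from 107 to 411 CPM, and HP Lrp1 differs 8.75-fold between the E16.5 libraries.

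To see which stromal cells carried the ligands, the 66 deposited stromal cluster codes were grouped by their letters into fibroblast (F), cartilage (C), mixed CF, adult CARs (CXCL12-abundant reticular cells) and Osteo, endothelial and Schwann clusters. Codes beginning with P were divided, after their markers were seen, into myogenic clusters (led by genes of muscle such as Pax7, Myf5, Myog or Mymx) and mural clusters (led by Myh11). Every F cluster had at least 4 of 5 fibroblast markers at 100 CPM or more, the CARs cluster 5 of 5 of its markers (Cxcl12 and Lepr among them) and Osteo 5 of 5 (Bglap and Ibsp among them). C clusters together also had 4 of 5 fibroblast markers at every stage, so this count does not separate F from C. The markers summed to 11080, 21650, 20270 and 35580 CPM in F and 2117, 2758, 4154 and 1482 CPM in C. F clusters together had 3, 5, 5 and 4 of 5 cartilage markers. CARs also had 5 of 5 fibroblast and 4 of 5 osteolineage markers. Some labels were not clean. E16.5 cluster F4 was led by Myh11 and Rgs5, F2 had Ostn, a gene of bone-forming cells, among its 10 leading genes at all 3 stages (with 5, 4 and 4 of 5 fibroblast and 1, 0 and 0 of 5 osteolineage markers at 100 CPM or more), there was no separate mural cluster at E16.5, and adult F9 and Osteo also had 4 of 5 cartilage markers (Col2a1 at 19360 and 8624 CPM).

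Fibroblast clusters were the main carriers of both ligands before birth. In the F clusters Mdk was at 786 (776 to 795), 386 (379 to 394), 377 (372 to 382) and 29.4 (27.9 to 31.03) CPM from E16.5 to the adult. The same clusters held 69.6%, 64.3%, 64.4% and 32.3% of all stromal Mdk UMIs, against 30.4%, 21.9%, 29.5% and 49.98% of all UMIs, so the fibroblast share went from above to below the clusters' part of the library. Ptn in F clusters was at 1506, 1431, 1421 and 138 CPM, and its share of stromal Ptn UMIs was 85.4%, 87.3%, 84.9% and 55.4%. Mdk thus had its first 2-fold step before E18.5 (0.492, 0.480 to 0.503), where Ptn stayed at 0.95 times its level (0.937 to 0.963), and both were lower in the adult, Mdk at 0.0781 and Ptn at 0.097 times the P0 level. In F clusters 2.49% of genes were at least 2-fold lower at the first step and 13.1% at the last. No member passed between E18.5 and P0, where 1.85% of genes were higher and 1.56% lower. Without adult F8 and F9 both ligands still passed at the last step.

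**Figure D2:**
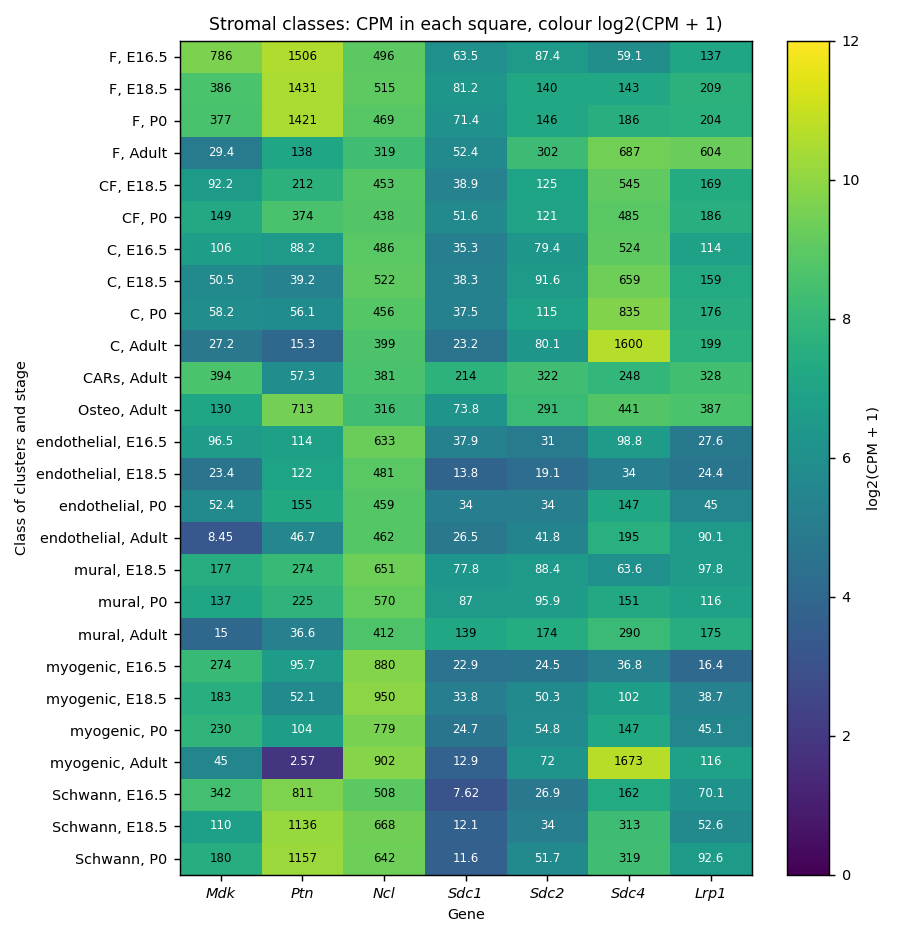
Level of the 7 genes in stromal classes of at least 50 cells by stage. The number in each square is the CPM and the colour log2(CPM + 1), both on summed UMIs. F rows hold the highest Ptn of the named classes from E16.5 to P0 (1421 to 1506 CPM), adult CARs 394 CPM of Mdk, and adult myogenic and C rows 1673 and 1600 CPM of Sdc4.

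Among F clusters of a stage the levels varied. Mdk ranged from 617 CPM (F4, mural-marked) to 927 CPM (F5) at E16.5, from 315 CPM (F2) to 464 CPM (F3i) at E18.5 and from 233 CPM (F2) to 533 CPM (F3i) at P0. Ptn was highest in E16.5 F3 (2335 CPM) and in P0 F5 (2018 CPM), and lowest among F clusters up to P0 in E16.5 F6 (764 CPM) and P0 F3ii (742 CPM). Clusters F5 at E16.5 and at P0 were both led by Tnmd, a marker of tendon cells, and Ptn was nearly level between them (2014 and 2018 CPM) while Mdk was at 0.5003 times its level (927 and 464 CPM) and Sdc4 2.21-fold higher, where 6.32% of genes were higher. Cartilage markers in F5 summed to 2431 and 4962 CPM at these stages, and their part in its Sdc4 was not tested. In the adult, F11 had 535 CPM of Ptn and 93.5 CPM of Mdk, whereas F13, led by Rab37 and Clic5, had 3.02 and 6.04 CPM. The adult F codes do not recur at earlier stages.

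Among adult stromal clusters of at least 50 cells, Mdk was highest in CARs and Ptn in Osteo, which was second for Mdk. F11, second for Ptn, had Mdk at 2.05 times the library's level. The CARs cluster, the reticular cells known as a source of CXCL12, had the highest Mdk of the adult clusters, 394 CPM (372 to 417), with 57.3 CPM of Ptn, and held 28.2% of adult stromal Mdk UMIs in 3.27% of all UMIs. The Osteo cluster of bone-forming cells had 713 CPM of Ptn (692 to 736) with 130.5 CPM of Mdk (121 to 140.3), and held 35.04% of the Ptn UMIs in 6.11% of all UMIs. Adult cluster P5 had a higher Ptn level still (1738 CPM, 1498 to 2006), but it held 21 cells and was led by Smpx, Ckm and Myl2, genes of muscle fibres. Thinned to equal depth, 26.7% (22.2 to 31.6%) of CARs had a Mdk UMI and 2.79% (1.34 to 5.06%) a Ptn UMI, while in Osteo cells the shares were 11.4% (8.28 to 15.1%) and 20.2% (16.2 to 24.7%). In adult endothelial cells, used as a low reference, they were 0.515% and 2.57%.

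Cartilage clusters had little of either ligand. C clusters had 106, 50.5, 58.2 and 27.2 CPM of Mdk and 88.2, 39.2, 56.1 and 15.3 CPM of Ptn from E16.5 to the adult. Both genes passed 2-fold lower at the first and the last step (2.38% and 12.7% of genes were higher, 1.63% and 13.4% lower), with no member past it between them (2.82% higher, 1.25% lower), and when clusters were grouped by names paired from the study's marker lists, neither passed at the first step. The adult codes C9, C10 and C11 do not occur at earlier stages, so the last step compares different clusters. The hypertrophic cartilage cluster C5, led by Col10a1 and Ihh, had the lowest Ptn of the E16.5 stroma (23.4 CPM) and 69.3 CPM of Mdk. Its Ptn was 0.0437 of the library's level, and the lowest of 4 collagens in C5 was at 0.0734. The lowest collagen was at 0.0398 in E16.5 C4 and at 0.0249 in E16.5 P-2. The part of free RNA in the Ptn of C5 was not tested.

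Schwann cells, the glia of peripheral nerves, kept high Ptn at every stage at which they were clustered. Schwann clusters had 811 (771 to 852), 1136 (1068 to 1207) and 1157 (1112 to 1203) CPM of Ptn at E16.5, E18.5 and P0, and 342, 110 and 180 CPM of Mdk, so that between E16.5 and E18.5 their Ptn was higher and their Mdk lower. Fibroblast markers in the Schwann clusters summed to 3061, 7337 and 5958 CPM, with 2, 3 and 4 of 5 at 100 CPM or more, and their part in the Ptn values was not tested. The myogenic clusters had 274, 183, 230 and 45.02 CPM of Mdk and 95.7, 52.1, 104 and 2.57 CPM of Ptn. Mural clusters had 177, 137 and 15.0 CPM of Mdk and 274, 225 and 36.6 CPM of Ptn from E18.5 to the adult, with both ligands past 2-fold lower in the adult (14.2% of genes higher, 8.39% lower). The adult mural code P4 and the adult endothelial codes AECs and SECs do not occur at earlier stages. Endothelial clusters had 96.5, 23.4, 52.4 and 8.45 CPM of Mdk and 114, 122, 155 and 46.7 CPM of Ptn. Mdk passed lower at E18.5 (8.49% of genes higher, 1.75% lower), higher at P0 (5.03% higher, 0.609% lower) and lower in the adult, where Ptn did too (18.6% higher, 3.93% lower). Its E18.5 value rests on 22 counts, and neither the E18.5 nor the P0 call of Mdk held with a mean over cells in place of summed UMIs (0.646 and 0.904 times, the latter in the other direction) or with a minimum of 200 counts, which also ended the adult call. Endothelial Mdk was 0.281, 0.177 and 0.304 of the library's level from E16.5 to P0, and the lowest of the 4 collagens, which these cells should largely lack, 0.167, 0.0625 and 0.272, so a part of the endothelial values was near the free RNA level, whose share was not tested.

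Clusters left undefined by the study also carried the ligands. P0 UD4, led by Lcn2, Igfbp2 and Hoxd13, had the highest Mdk of any cluster, 1153 CPM (1084 to 1225), and 1629 CPM of Ptn. E16.5 UD1, led by Igfbpl1 and Stmn3, genes of neurons, had 1024 CPM of Mdk. P0 UD2, led by Neurod1 and Nhlh2, likewise neuronal genes, had 1936 CPM of Ptn and 226 CPM of Mdk, at a median of 474 UMIs per cell. P0 UD3, led by the pigment genes Tyrp1 and Mlana, had the lowest P0 values of both, 12.1 and 28.2 CPM.

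Clusters whose code recurs were compared across stages one by one. Of the 4 stromal codes present at E16.5 and E18.5 (C5, ECs, F2 and Schwann), Mdk was at least 2-fold lower in 4, at 0.242 to 0.486 times the E16.5 level, while 1.34% of genes in C5, 1.75% in ECs, 1.03% in F2 and 2.45% in Schwann were lower by the same rule. Ptn passed in none of these codes, at 0.780 to 1.40 times. The ECs call is the one on 22 counts that a mean over cells ended. All 4 Mdk folds come from the same pair of libraries, whose Mdk was at 0.384 times, so they are not independent. Relative to the library's level, Mdk at E16.5 and E18.5 was 0.202 and 0.175 in C5 and 0.281 and 0.177 in ECs. It was 1.89 and 2.39 in F2 and 0.997 and 0.832 in Schwann. The part of free RNA in these folds was not tested. In F2 the Mdk level went from 648 to 315 and then 233 CPM, and Ptn from 1326 to 1626 and 1255 CPM. Ptx4, Tnmd and Kera were among the leading genes of F2 at E18.5 and not at E16.5 or P0. They led F5 at E16.5 and P0 (2014 and 2018 CPM of Ptn), and no F5 code occurs at E18.5. The part of such cells in the F2 values was not tested. Between E18.5 and P0, over 10 codes, Mdk passed in 1 (ECs, 2.24-fold higher, on the same 22 counts) and Ptn in 1 (F3ii, 0.494 times, with 10.7% of its genes lower). Neither held with a mean over cells (0.904 and 0.563 times), and Ptn in F3ii did not with the other UMI total (0.528 times). A shared code is the study's own match of clusters, and cells under it need not be the same cells.

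**Figure D3:**
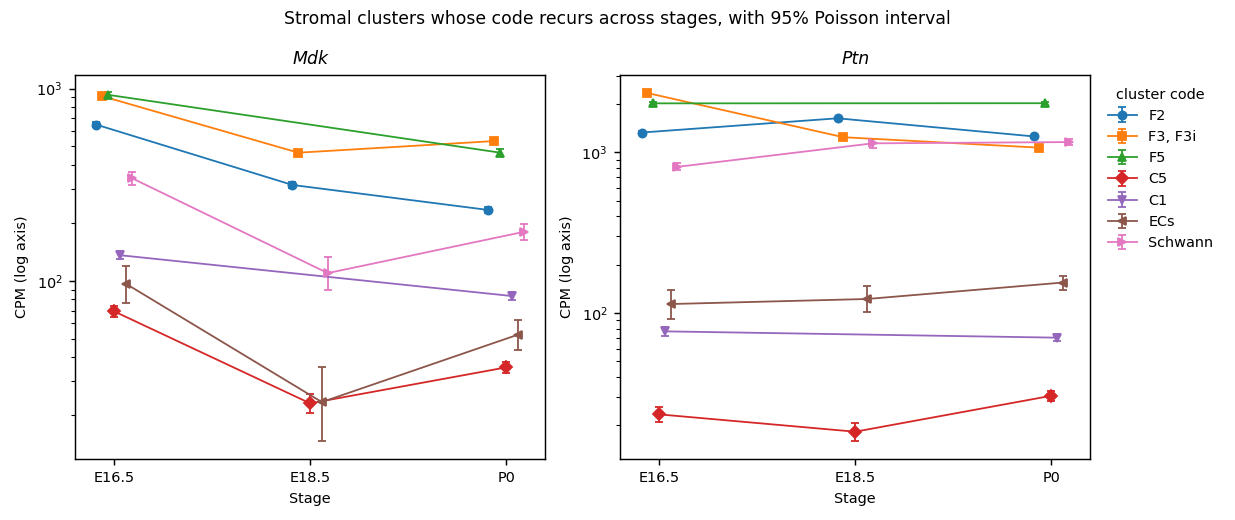
Mdk (left) and Ptn (right) in CPM (log axis) for stromal clusters whose code recurs at E16.5, E18.5 or P0, with F3 at E16.5 set beside F3i later. F3 and F3i are different codes. P0 F3i shared the leading genes Gpr83, Rxfp2 and Fam69c with E16.5 F1 and none with E16.5 F3. Bars are exact Poisson 95% intervals. Each Mdk line between E16.5 and E18.5 goes down, while Ptn in Schwann and F2 is higher at E18.5. At E18.5 F2 shared the leading genes Ptx4, Tnmd and Kera with F5 of E16.5 and P0.

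A UMI of both ligands was found in a larger share of F cells before birth than in the adult. At 1000 UMIs per cell, Mdk was found in 51.9% (50.1 to 53.8%), 30.4%, 28.3% and 2.97% (2.43 to 3.58%) of F cells from E16.5 to the adult, and Ptn in 61.5% (59.6 to 63.3%), 59.6%, 58.4% and 10.7% (9.66 to 11.7%). Both were found in the same cell in 33.9%, 18.6%, 18.4% and 0.678% of F cells, against 31.9%, 18.1%, 16.5% and 0.316% if the 2 transcripts were spread over cells independently. In C cells, used as a low reference, Mdk was found in 9.39%, 5.75%, 5.65% and 2.86%, Ptn in 8.17%, 4.05%, 4.78% and 1.47%, and both in 1.42%, 0.197%, 0.379% and 0% (0 of 1086 cells, exact upper bound 0.339%), so the adult F share for Mdk was at the level of the reference. Median depths of F and C cells were 11357 and 14031 UMIs at E16.5 and 11596 and 27498 UMIs in the adult. In adult Osteo cells 4.71% (2.77 to 7.43%) held both, against 2.30% under independence. Without thinning, Mdk was found in 97.1%, 89.0%, 84.4% and 18.98% of F cells.

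**Figure D4:**
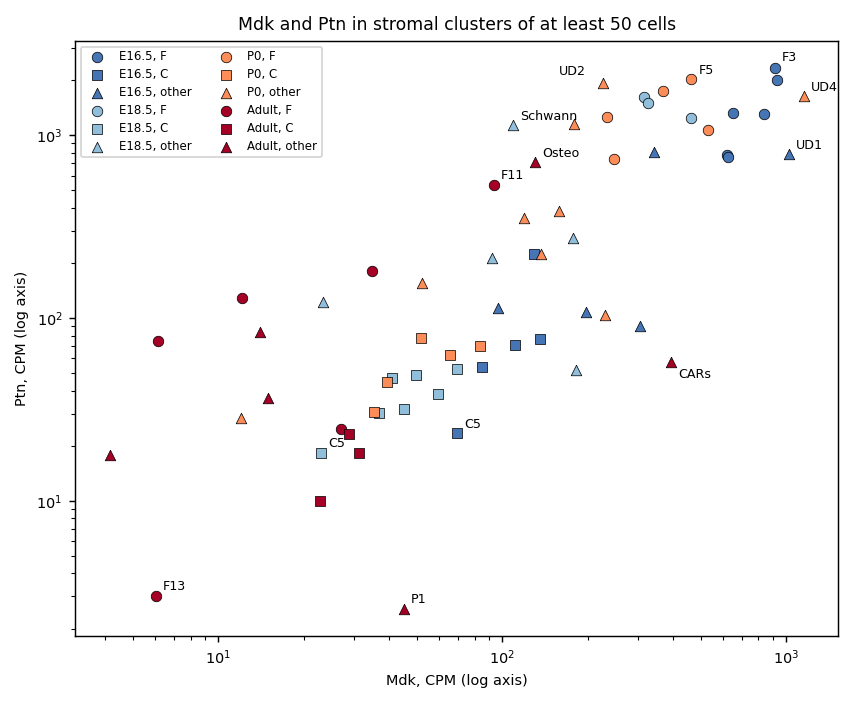
Ptn against Mdk (CPM, both log axes) in the stromal clusters of at least 50 cells, coloured by stage, with circles for F, squares for C and triangles for other clusters, and a few clusters named by their code. F clusters of E16.5 to P0 sit at the upper right (E16.5 F3 at 912 and 2335 CPM), adult CARs at high Mdk with 57.3 CPM of Ptn, and adult Osteo and F11 at high Ptn.

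Nucleolin, the ribosome assembly protein, was found in every stromal class, and no stage step of any of these classes passed 2-fold. Stromal Ncl was at 542, 539, 486 and 361 CPM. It was highest in the myogenic clusters at each stage (880, 950.2, 780 and 902 CPM) among named classes, and next to them endothelial (E16.5, 633 CPM) and Schwann clusters (E18.5, 668 CPM), whose intervals overlapped those of the class below.

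Syndecan 4, the widely expressed member of the family found at cell adhesion sites, was the partner with the clearest divide. C clusters had 524, 659, 835 and 1600 CPM of Sdc4 and held 91.3%, 91.6%, 85.4% and 56.7% of its stromal UMIs, against 53.6%, 70.3%, 57.5% and 33.2% of all UMIs. F clusters had 59.1 (56.6 to 61.7), 143 (139 to 148), 186 (183 to 190) and 687 (679 to 694) CPM, past 2-fold higher at E18.5 (2.43, 2.30 to 2.56) and in the adult (3.68, 3.60 to 3.77), at steps where 3.43% and 15.5% of genes were higher. The 5 cartilage markers, with Col2a1 foremost, summed to 2094, 7271, 7650 and 7108 CPM in the F clusters from E16.5 to the adult, so they moved with Sdc4 at the first step and not at the last, and their part in its E18.5 level was not tested. Adult F9, the F cluster with cartilage markers, had 1224 CPM of Sdc4 and F11 164.7 CPM, so adult F clusters differed widely. Adult myogenic cells had 1673 CPM (1584 to 1767) against 36.8 CPM at E16.5, with cartilage markers at 538 and 1332 CPM. At P0, ECs were 4.33-fold, F3ii 3.89-fold and P2 2.38-fold above E18.5, while F3i was at 0.384 times (108 and 41.5 CPM), where 5.03% (ECs), 8.18% (F3ii) and 1.93% (P2) of genes were higher and 3.46% (F3i) lower. In mural clusters, of which P2 was the sole one at both stages, 1.71% were lower. At E18.5, Sdc4 in ECs was at 0.344 times its E16.5 level. With a mean over cells this was 0.900 times and F3i at P0 0.523 times, so neither passed. Cartilage markers moved with Sdc4 in most of these codes. They summed to 4092, 2695 and 9547 CPM in ECs from E16.5 to P0. Between E18.5 and P0 they went from 6389 to 32150 CPM in F3ii, from 6629 to 2059 CPM in F3i and from 6059 to 6000 CPM in P2, whose Sdc4 was higher while the sum was nearly the same. Their part in these Sdc4 values was not tested.

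Syndecan 1, the member of epithelia and plasma cells, and syndecan 2, that of mesenchyme, followed other patterns. Sdc1 stayed between 41.8 and 49.3 CPM over the 4 stromal libraries, and within a stage it was highest in adult CARs (214 CPM, 197 to 231), adult mural P4 (139 CPM) and F2 from E16.5 to P0 (95.1, 111 and 99.0 CPM). Its only step past 2-fold was in ECs at P0 (13.8 and 33.98 CPM, on 13 and 83 counts, where 5.03% of genes were higher), and it passed neither with a mean over cells (1.55-fold) nor with a minimum of 200 counts. Sdc2 was at 73.2, 99.7, 118 and 212 CPM in the libraries, and in F clusters at 87.4, 140, 146 and 302 CPM, 2.07-fold higher (2.01 to 2.13) in the adult. The fold was 1.68 with the other UMI total and 1.96 without adult F8 and F9 or with paired names, all under 2. Adult F13 had the highest Sdc2, 986 CPM, with 5 of 5 fibroblast markers at 100 CPM, followed by F8 with 487 CPM.

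Lrp1 in fibroblast clusters passed 2-fold at the last step alone. F clusters had 137, 209, 204 and 604 CPM, 2.96-fold higher in the adult (2.90 to 3.02), and held 73.5% of adult stromal Lrp1 UMIs. Adult F8, which the study's markers pair with PαS cells, had 874 CPM and F13 833 CPM. Thinned shares of F cells with an Lrp1 UMI were 13.7%, 21.7%, 18.0% and 43.1%. Endothelial Lrp1 was at 27.6, 24.4, 45.04 and 90.1 CPM, past 2-fold in the adult (2.00, 1.62 to 2.50, 18.6% of genes higher) but not with the other UMI total (1.69-fold) or a mean over cells (1.14-fold). In C clusters Lrp1 was at 114, 159, 176 and 199 CPM, with no step past 2-fold.

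In the HP libraries the ligands were close to 0, far below the stroma of the same stage. HP Mdk was at 7.87 and 7.69 CPM in the E16.5 pair, at 2.58 CPM by E18.5, and at 1.37 and 1.013 CPM in P0 and adult HPs. Mast clusters held 66.2% of the E16.5 HP Mdk UMIs in 36.5% of all E16.5 HP UMIs. They held 6.52%, 3.22% and 0.444% of all HP UMIs at E18.5, P0 and in the adult. The part of this makeup in the HP Mdk levels was not tested. HP Ptn was at 8.52 and 1.63 CPM at E16.5, then 0.0925, 0.149 and 0.287 CPM, on 6, 19 and 17 counts. The E16.5 libraries had close totals of Mdk (ratio 1.02, 0.83 to 1.25). They differed on Ptn (5.23), Sdc1 (2.85), Sdc4 (2.47), Lrp1 (8.75) and Ncl (0.673), while the interval for Sdc2 (2.57) ran from 0.439 to 10.7. Within classes Mdk differed, with no overlap of intervals. In the first and the second library it was at 9.36 and 15.1 CPM in mast and 39.3 and 100 CPM in undefined clusters. In T/NK cells it was at 19.9 (on 8 counts) and 2.44 CPM, and in Mono/Mast cells at 5.44 and 1.35 CPM. The close totals are thus no replicate check within cell types. The libraries differed in makeup too, with 18 T and NK cells of 560 in the first and 2141 of 4752 in the second library. Mono/Mast cells were 161 of 560 and 142 of 4752, and they held 727 of 828 and 352 of 649 Lrp1 counts. Within the Mono/Mast cluster, Lrp1 was at 188 CPM (175 to 202) in the first and 95.01 CPM (85.4 to 106) in the second library, while Sdc4 in B cells was at 290 and 268 CPM, with overlapping intervals.

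Most of the HP Ptn came from an undefined cluster. E16.5 UD2, 65 cells with a median of 1049 UMIs, held 265 of 275 E16.5 Ptn counts (684 CPM), with 209 CPM of Mdk. Only 6 cells of the whole first and 12 of the whole second E16.5 HP library had a Ptn UMI. A small part of the UD2 cells thus carried these counts. Ptn was itself among the genes that lead this cluster, so its level there describes the cluster and is not a result. It also had 212 CPM of Col1a1, 318 CPM of Col3a1 and 302 CPM of Dcn, none of which is made by HPs. Map2, Ptprz1 and Fabp7 were among its leading genes too, and Ctsk and Acp5 were at 356 and 591 CPM. The adult HP cluster labelled Stroma (56 cells) had 73.2 CPM of Mdk and 48.8 CPM of Ptn, on 3 and 2 counts.

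Apart from E16.5 UD2, Mdk in HPs of E16.5 was highest in TCell5 and in the undefined cluster UD1. TCell5, led by Xcl1, Klrc1 and Il2rb, had 30.1 CPM of Mdk at E16.5 (24.1 to 36.98), 85.3 CPM at E18.5 (69.0 to 104) and 29.6 CPM at P0 (18.6 to 44.8), while the E16.5 clusters TCell1 to TCell4 had 0.461 to 1.35 CPM and TCell6 0 counts. UD1 at E16.5, 79 cells led by Ccdc184 and Mapk10, had 28.6 CPM of Mdk (18.2 to 42.95), with 3 of 5 T/NK and 4 of 5 mast markers at 100 CPM or more. In TCell5 the E18.5 level of Mdk was 2.84 times that of E16.5 (2.10 to 3.84) and the P0 level 0.347 times that of E18.5 (0.208 to 0.556), where 3.48% of genes in TCell5 were at least 2-fold higher at the first step and 1.16% lower at the second. As a mean over cells the folds were 1.35 and 0.660, so neither step passed. The cluster had 4, 5 and 4 of 5 T/NK markers at 100 CPM or more. Col1a1, Col1a2, Col3a1 and Col2a1 were at 0 in TCell5 at all 3 stages, and mast markers summed to 2520, 143 and 186 CPM in its cells from E16.5 to P0. The part of mast RNA in the Mdk values was not tested. The adult T/NK cluster had 2.00 CPM, on 1 count.

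**Figure D5:**
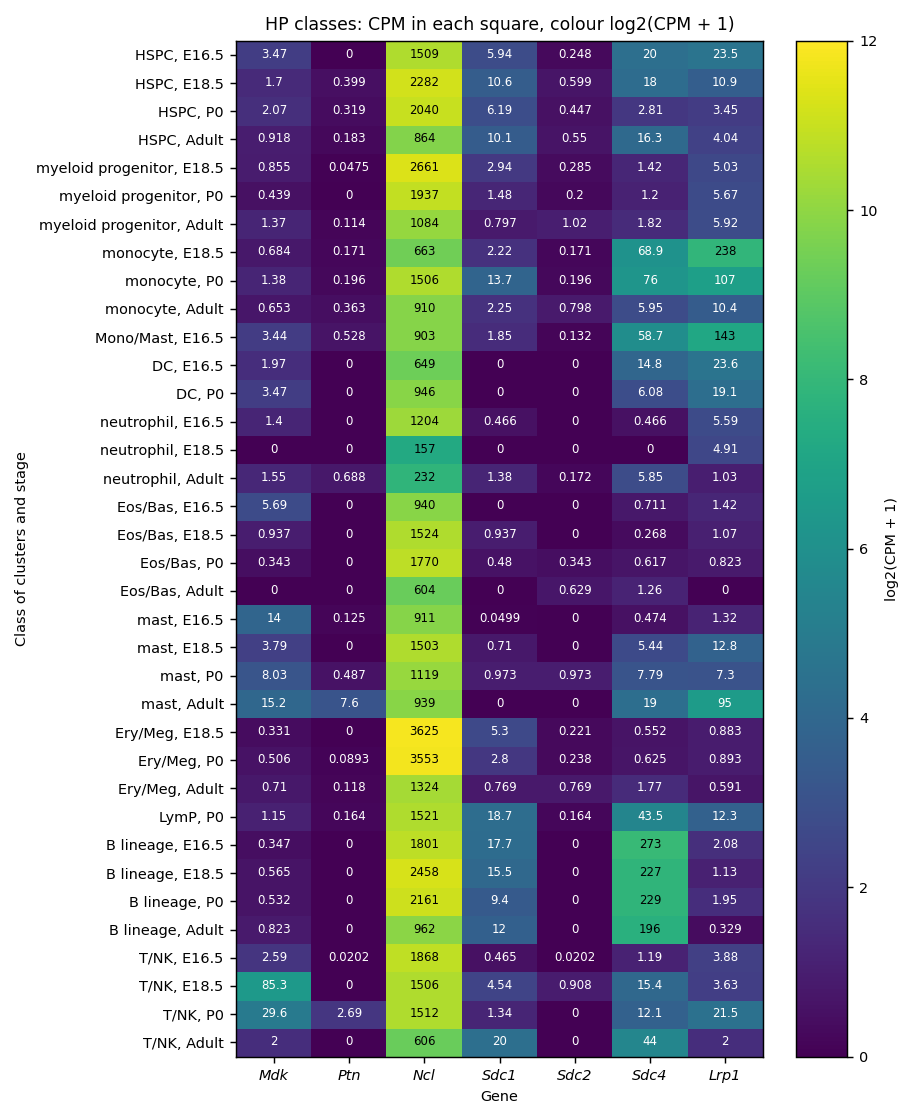
Level of the 7 genes in HP classes of at least 50 cells by stage, drawn as for the stroma, with the CPM in each square and log2(CPM + 1) as the colour. Ncl is high throughout (up to 3625 CPM in Ery/Meg cells at E18.5), Sdc4 stands out in B lineage cells (196 to 273 CPM), Lrp1 in monocytes, and Mdk in T/NK cells at E18.5 (85.3 CPM).

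Among partners in HPs, each was highest in other lineages. By class, Ncl was highest in erythroid and megakaryocyte progenitors at E18.5 (3625 CPM), P0 (3553 CPM) and in the adult (1324 CPM), up to 4277 CPM in P0 EryP1. It was lowest in neutrophils (157, 163 and 232 CPM at the same stages). Among single adult clusters Ncl was highest in MyP4 (2273 CPM, at a median of 570 UMIs per cell), ahead of EryP2 (1437 CPM). Apart from the adult cluster labelled Stroma, Sdc4 was highest in the B lineage among named classes, at 273, 227, 229 and 196 CPM from E16.5 to the adult, with 618 CPM in P0 BCell2 and 382 CPM in adult Pre/Pro-B2, both led by Vpreb genes. Sdc1 did not exceed 19.99 CPM in any B lineage or T/NK class. Lrp1 was highest in clusters of monocyte and macrophage genes up to P0, with 143 CPM in E16.5 Mono/Mast cells, led by Timd4 and Lyve1, and 238, 107 and 10.4 CPM in monocyte classes at E18.5, P0 and in the adult. The adult codes Mono4, Mono5 and Mono6 do not occur at earlier stages, so these classes compare unlike clusters. Adult Mono5 was led by Siglech, adult Mono6 by Ifi205, Tlr3 and Batf3, and P0 Mono1 by Ctsk and Atp6v0d2. Mono2 at E18.5 and P0 shared leading genes such as Il1a, Sall1, Sparc, Crybb1, P2ry12 and Olfml3. Its values describe that cluster and not marrow monocytes at large. Mono2 had 453 and 127 CPM of Lrp1 and 162 and 51.0 CPM of Sdc4. Both were lower at P0 (0.281 and 0.314, 14% of genes lower), while its Ncl was 2.39-fold higher (17.2% of genes higher). As a mean over cells, Sdc4 (0.519 times) and Ncl (1.79-fold) did not pass. HSPC2, with 2 of 5 HSPC markers at 100 CPM at both stages, had 18.0 and 3.94 CPM of Sdc4 and 10.9 and 2.31 CPM of Lrp1 at E18.5 and P0, both past 2-fold lower (2.29% of genes). Its leading genes changed with the stage, from Stc1 and Ccr9, which also led the P0 lymphoid progenitor cluster LymP (43.5 CPM of Sdc4 and 12.3 CPM of Lrp1), to Pdzk1ip1 and Nkx2-3. B lymphoid markers in HSPC2 summed to 170 and 45.5 CPM, and their part in the values was not tested. Mast3 had 12.4 and 5.61 CPM of Lrp1 (1.68% of genes lower). Sdc2 was at or below 1.02 CPM in every HP class of at least 50 cells but the E16.5 undefined clusters and the adult cluster labelled Stroma.

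The HP libraries allowed a test against E16.5, whose pair gives 1 residual degree of freedom, so the lone libraries are assumed to vary like it. By edgeR's quasi-likelihood test with Benjamini-Hochberg adjustment, 0 of 7 members passed an adjusted p of 0.05 at any later stage over all HP cells. There 0.00621%, 0.168% and 1.35% of 16114 genes were called higher and 0%, 0.124% and 0.993% lower. At an unadjusted p under 0.05, 1047, 1368 and 2462 genes passed. DESeq2 called 361, 561 and 1164 genes, with Ptn lower at E18.5, P0 and in the adult (DESeq2 adjusted p = 0.000217, 0.000479 and 0.00876), Mdk lower at P0 and in the adult (0.025 and 0.00545) and Lrp1 lower in the adult (0.0386), so the members' calls over all HP cells depended on the test. Without the 65 cells of E16.5 UD2 the DESeq2 calls of Mdk and Lrp1 held (DESeq2 adjusted p = 0.0413, 0.0107 and 0.038), and those of Ptn did not, with an edgeR log2 fold change of -0.69 for E18.5, 0.071 for P0 and 1.18 for the adult (edgeR adjusted p = 1, 1 and 0.765). The log2 fold change of Mdk was -1.69 (SE 0.713, adjusted p = 0.76), -2.51 (SE 0.747, adjusted p = 0.339) and -2.76 (SE 0.763, adjusted p = 0.148), and that of Ptn -5.79 (SE 1.47, adjusted p = 0.321) at E18.5. Mast clusters held 66.2% of E16.5 HP Mdk UMIs and were a smaller part of the later libraries. Their part in these Mdk values was not tested. With the first or the second E16.5 library left out, Ptn at E18.5 was at -3.96 or -6.14, and Lrp1 in the adult at -0.51 or -3.52. In simulated data 45% of 8-fold changes were recovered between P0 and E16.5, so changes of that size could be missed.

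Within the mast class, found in all 5 libraries, 4 members could be tested. The clusters that make it up differ by stage, Mast1, Mast2i and Mast2ii at E16.5, Mast3 and Mast/Bas at E18.5, Mast3 and Mast4 at P0 and Mast4i and Mast4ii in the adult, so the later stages are compared with other clusters and not with the same code. At E18.5 Mdk was lower (log2 fold change -1.82, SE 0.435, adjusted p = 0.0176, from 9.36 and 15.1 CPM to 3.79 CPM), and Sdc4 and Lrp1 were higher (3.25, adjusted p = 0.0041, and 2.58, adjusted p = 0.033). At P0 Sdc4 passed (3.81, adjusted p = 6e-04) and in the adult Sdc4 and Lrp1 (5.05, adjusted p = 0.00843, and 5.47, adjusted p = 0.000821). Mdk passed neither at P0 (8.03 CPM) nor in the adult (15.2 CPM). The edgeR test called 5.18%, 8.48% and 2.05% of 11394 genes higher and 1.87%, 2.24% and 0.0351% lower at these stages. With DESeq2 none of the 6 calls held (adjusted p from 0.0572 to 1). With the first or the second E16.5 library left out, the E18.5 values were -2.21 or -1.32 for Mdk, 3.00 or 2.07 for Sdc4 and 3.75 or 1.29 for Lrp1, Sdc4 was at 3.54 or 2.61 at P0 and at 4.73 or 3.78 in the adult, and adult Lrp1 at 6.59 or 4.13. These are values with no test. For Sdc4 both lay below the fitted value at each stage, so they do not bound it. The adult Sdc4 and Lrp1 counts were 5 and 25, and adult Mast4ii was led by the macrophage genes C1qc, C1qb and C1qa, with 204 CPM of Lrp1 (129 to 305), so macrophage RNA moved with that value and its part was not tested. At P0, Mast4 gave 274 of the 534 mast cells at a median of 564 UMIs, and it was led by Col3a1, Col1a1 and Col2a1 (469, 290 and 548 CPM) ahead of the mast genes, with 52.7 CPM of Sdc4 on 10 counts. Without mast clusters of a median under 1000 UMIs, Mast4 among them, the calls for E18.5 and P0 held (P0 Sdc4 at 3.23, edgeR adjusted p = 0.00437), with no adult value left.

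Other known partners were also looked up. Of 15 further receptors and partners 14 were in the matrix, and 6 reached 100 CPM in a stromal class and 4 in an HP class, where 18% and 17.6% of all 20275 genes did. Ptprz1, a receptor phosphatase bound by pleiotrophin, was highest in E16.5 Schwann cells (754 CPM), Itgb1 in P0 mural cells (934 CPM), Nrp1 in adult endothelium (668 CPM), Itga6 in E18.5 Schwann cells (400.2 CPM), Sdc3 in adult C clusters (320 CPM) and Itgav in adult CARs (107 CPM). In HPs Itga4 reached 543 CPM in E18.5 mast cells. In F clusters between P0 and the adult, 0 of the 11 with enough counts were 2-fold higher and 1 lower, Ptprz1, beside 15.5% and 13.1% of all genes. At the same step C clusters had 4 of 10 higher (Nrp1, Sdc3, and, named after their values were seen, Cspg5 and Lrp8) and 1 lower (Ptprz1), beside 12.7% and 13.4% of all genes. Endothelial clusters had 1 of 5 higher (Nrp1) and 0 lower, beside 18.6% and 3.93%, and mural clusters 1 of 8 higher (Nrp1) and 3 lower (Ptprz1, Itga4 and Itga6), beside 14.2% and 8.39%.

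The enzymes and core proteins of the sulfated chains were all in the matrix, 22 of 22, with 8 at 100 CPM in a stromal class (18% of all genes). Tnc, a matrix protein, was highest in adult CARs (1550 CPM), Vcan, a chondroitin sulfate proteoglycan, in E18.5 F clusters (679 CPM) and Chst11, a chondroitin sulfotransferase, in adult C clusters (577 CPM). Of the 20 counted in F clusters between P0 and the adult, 7 were at least 2-fold higher (Xylt1, Chst3, Chst11, Chst12 and Csgalnact1 among them) and 3 lower (Hs6st2, Tnc and, named after its value was seen, Chsy3), beside 15.5% and 13.1% of all genes, with a median log2 difference of -0.15 beside 0.07 for all genes. C clusters had 5 of 20 higher (Xylt1, Chst11, Chst12, Ndst1 and Chst15) and 5 lower (Hs6st2, Chst3, Vcan, Tnc and Chsy1). Endothelial clusters had 1 of 16 higher (Ndst1) and 1 lower (Tnc), and mural clusters 3 of 12 higher (Xylt1, Chst11 and Chst12) and 0 lower, all beside the shares given for the partners. Ndst1, Chst15 and Chsy1 were named after their values were seen. In HPs, 3 heparan sulfate enzymes were highest in E16.5 mast cells, Ndst2 (207 CPM), Hs2st1 (158 CPM) and Hs6st2 (143 CPM).

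Over the 135 clusters of at least 50 cells in both compartments, Pearson correlation of log2(CPM + 1) was used as a description, since clusters of a library share its depth and free RNA. The genes most like Mdk, of 5765 ranked, were Mfap2 (r = 0.914), Ptn (0.91), Ptprd (0.895), Cdkn1c (0.895) and Mfap4 (0.887). Mfap2 and Mfap4 are proteins of elastic microfibrils, and Ptprd is a receptor phosphatase. Those most like Ptn were Postn (r = 0.949), Mfap2 (0.939), Mfap4 (0.938), Nfib (0.938) and Dclk1 (0.934). Over the 65 stromal clusters alone the Mdk list changed entirely, led by Crabp1 (0.84), and Mdk and Ptn correlated at 0.786. Postn, periostin, is a matrix protein of connective tissue.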

How the data were processed

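Single-cell RNA-Seq libraries were made with 10x Genomics 3′ chemistry. Per the study's methods, the authors aligned reads to mm10 with Cell Ranger 3.1.0, analysed them in Seurat 3.1.5 under R 4.0, removed cells of low or extreme depth and likely doublets, and removed blood cells from the stroma. The deposited values were raw UMI counts of 20275 genes in 56201 cells, with the authors' cluster codes and, per cell, the deposited share of mitochondrial UMIs as a fraction, on which the authors had filtered. Counts of 29 antibodies, none against these genes, were not used. No doublet caller was run here.

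UMIs were summed per library, class or cluster and given as CPM. Shares were taken after thinning to 1000 UMIs per cell, which left out 3970 shallower cells. Where classes had to be formed, the letters of the codes were used, with names paired from the study's marker lists as the alternative, and this order was exchanged after the data were seen. HP sums were tested with edgeR 4.0.16 (quasi-likelihood, TMM, filterByExpr) and DESeq2 1.42.0 as an alternative in R 4.3.3, after tests on simulated data. Sums, intervals and figures were made in Python 3.11.15 (scipy 1.17.1, matplotlib 3.10.9, pandas 2.3.3, numpy 2.4.6). The labels do not say that the E16.5 HP libraries came from separate mice, so p-values measure only the spread between these libraries, which may be technical.

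Named were the 7 genes, members of the partner and chain lists with at least 100 CPM in a class, and the 5 genes most correlated with each ligand. List members under that level are marked in the text as named after their values were seen. The members and lists were chosen with earlier results of these data known. Alternatives were another denominator, a minimum of 1000 UMIs per cell, a mean over cells, another fold or count minimum, no thinning or 2000 UMIs, another pseudocount, other normalization, test or filter, each E16.5 HP library left out, and, chosen after the data were seen, the HP test without the cells of E16.5 UD2 or without shallow mast clusters.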

Additional observations from a re-analysis of the deposited data

Results flagged for a closer look

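Between E18.5 and P0 the library level of Mdk moved in opposite directions in the 2 compartments, at 0.53 times in HPs and 1.31 times in the stroma, each from 1 library per stage. Sdc4 did likewise at the same step, at 0.654 times in HPs and 1.11 times in the stroma. Between P0 and the adult Lrp1 was at 0.577 times in HPs and 2.39 times in the stroma. Among HPs, TCell5 held 56.3% of the Mdk UMIs in 1.7% of all UMIs at E18.5, and 12.6% in 0.583% at P0. Its part in the HP step of Mdk was not tested. The difference between compartments was not tested in any of these 3 cases.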

How the results depend on the processing

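With 1 stromal library per stage, counts of genes past 2-fold have no replicate check, and HP Ptn and Sdc2 and the adult mast values rest on few counts. Of 14 step counts, 14 stayed within 1.5 times with another denominator and 14 with cells of at least 1000 UMIs, but of the 26 calls behind them the other denominator ended 3 (Lrp1 in all stroma and endothelial clusters and Sdc2 in F clusters, all in the adult), a mean over cells 5, a minimum of 200 counts 5 and paired names 3. A fold of 1.5 in place of 2 gave 3 members in all stroma and 4 in F clusters at E18.5, 5 in endothelial clusters at P0, and 5 in all stroma, 4 in C and 6 in mural clusters in the adult. Paired names gave 0 for C clusters at E18.5, a mean over cells 0 for endothelial clusters at E18.5, and a minimum of 200 counts 0 and 1 for endothelial clusters at E18.5 and P0. Of the 5 genes most like Mdk, 0 recurred over stromal clusters alone and 3 with a pseudocount of 10, and of those most like Ptn 1 recurred over stromal clusters. Over all HP cells, genes called at E18.5, P0 and in the adult (1, 47 and 378 as reported) were 361, 561 and 1164 with DESeq2 and 485, 713 and 1515 with no filter, and 35 and 78 at E18.5 and P0 with DESeq2 size factors. Without the cells of E16.5 UD2, an alternative chosen after the data were seen, edgeR called 43 and 91 at E18.5 and P0 and DESeq2 360, 566 and 1155, and the log2 fold change of Ptn reversed to 0.071 at P0 and 1.18 in the adult (0.92 with DESeq2). In mast clusters (803, 1221 and 238 as reported) they were 105, 120 and 138 with DESeq2, 1265 at E18.5 and 394 in the adult with no filter, and 359 in the adult with size factors. With no filter, edgeR also called Ptn at all 3 stages, Lrp1 at P0 and in the adult and Mdk in the adult over all HP cells, and Lrp1 in mast clusters at P0, as it did with DESeq2 size factors (1.76, adjusted p = 0.0159). The cause of these shifts was not tested. With the first or the second E16.5 HP library left out in turn, 7 log2 fold changes that edgeR did not call with its filter changed sign over the range. Over all HP cells they ran for Sdc4 from -0.33 to 0.86 at E18.5, from -0.86 to 0.35 at P0 and from -0.14 to 1.05 in the adult, for Lrp1 from -1.19 to 1.82 at E18.5 and from -2.88 to 0.15 at P0, and for Ncl from -0.49 to 0.19 in the adult. In adult mast clusters Mdk ran from -0.29 to 0.54. These are values with no test. No paired analysis was possible because the groups compared share fewer than 2 replicate numbers.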
